A study of Mus musculus with 360 samples.

Results

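The cells compared here were single heated C1498 cells picked 5 h after heat exposure and divided by how much Hsph1 RNA each held. Such cells made up 61.9% of the series, and all but 7 of them (96.9%) had at least 5000 UMIs (RNA molecules counted by molecular barcode) and no more than 30% of them from Rn45s, the ribosomal RNA precursor gene. Members were chosen by their own Hsph1 level among these cells. The 54 cells at or above the 75th percentile of Hsph1, 2534 CPM (UMIs scaled to 1000000 per cell), are called Hsph1-high. The 54 cells at or below the 25th percentile, 915.7 CPM, are called Hsph1-low, and the cells between the limits are called middle cells. Together the high and low cells were 30% of the 360 cells in the series. Because Hsph1 itself made the sets, its values are a description and support nothing else.

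C1498 is a mouse leukemia line, labelled acute myeloid. Cells were exposed to 45 °C for 10 min, or to 37 °C as the control, watched by time-lapse microscopy and then picked one at a time by an automated imaging and picking instrument. Beside the cells of 45 °C 5 h, the comparisons below use the 6 cells of 37 °C 5 h, all 51 unheated cells (every 37 °C cell and those of the 45 °C arm picked before heating), and the 45 °C cells of 1, 10 and 15 h (13, 52 and 21 cells). No label gives a culture, plate or picking batch, so all cells of 45 °C 5 h counted as 1 sample and no p-value was computed from cells.

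Hsph1 encodes HSP110, a large relative of HSP70 that exchanges the nucleotide of HSP70 and holds unfolded proteins in solution. In the heat shock response the transcription factor HSF1 forms trimers, binds heat shock elements made of repeated GAA units in alternating orientation, and drives genes of HSP70, HSP90, J-domain cochaperones and Hsph1. The response is transient, and chaperones including HSP70 and DNAJB1 act back on HSF1.

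The promoters of Hsph1 and of 4 chaperone genes at least 1.5-fold higher in Hsph1-high cells are shown first, because they carry these repeats and were picked for that. They run from 250 bases before to 50 bases after each RefSeq start in GRCm38.p6, the assembly that the files' build mm10 also names, on the gene's own strand. Capitals mark every match to a pair of facing units, GAANNTTC or TTCNNGAA, both of which read the same on either strand. Overlapping matches merge into one capital run, and a run of 3 units in alternation is a longer form of the element.
Hsph1, chr5:149636287-149636586, minus strand: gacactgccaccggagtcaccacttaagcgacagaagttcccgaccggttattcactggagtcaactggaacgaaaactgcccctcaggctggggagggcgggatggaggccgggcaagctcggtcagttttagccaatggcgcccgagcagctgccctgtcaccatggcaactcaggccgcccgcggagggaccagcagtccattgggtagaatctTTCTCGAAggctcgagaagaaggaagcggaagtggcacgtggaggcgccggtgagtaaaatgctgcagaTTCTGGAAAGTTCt
Hspe1, chr1:55087898-55088197, plus strand: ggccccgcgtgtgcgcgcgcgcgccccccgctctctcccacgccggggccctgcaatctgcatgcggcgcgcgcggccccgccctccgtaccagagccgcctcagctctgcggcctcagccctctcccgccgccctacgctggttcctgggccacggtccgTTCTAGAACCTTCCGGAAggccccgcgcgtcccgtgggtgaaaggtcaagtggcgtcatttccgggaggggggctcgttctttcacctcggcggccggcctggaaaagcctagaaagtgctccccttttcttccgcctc
Chordc1, chr9:18292017-18292316, plus strand: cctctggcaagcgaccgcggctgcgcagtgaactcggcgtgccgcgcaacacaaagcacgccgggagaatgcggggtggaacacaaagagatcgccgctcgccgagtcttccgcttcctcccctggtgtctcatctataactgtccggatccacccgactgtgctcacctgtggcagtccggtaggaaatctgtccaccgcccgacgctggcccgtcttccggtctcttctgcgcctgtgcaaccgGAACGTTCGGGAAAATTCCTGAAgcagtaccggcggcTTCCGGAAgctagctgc
Dnaja1, chr4:40722218-40722517, plus strand: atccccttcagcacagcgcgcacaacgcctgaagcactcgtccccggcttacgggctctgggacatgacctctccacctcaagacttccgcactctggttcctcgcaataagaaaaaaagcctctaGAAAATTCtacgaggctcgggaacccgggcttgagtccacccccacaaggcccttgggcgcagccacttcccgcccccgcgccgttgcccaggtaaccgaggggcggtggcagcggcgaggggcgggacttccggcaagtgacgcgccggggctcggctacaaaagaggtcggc
Bag3, chr7:128523333-128523632, plus strand: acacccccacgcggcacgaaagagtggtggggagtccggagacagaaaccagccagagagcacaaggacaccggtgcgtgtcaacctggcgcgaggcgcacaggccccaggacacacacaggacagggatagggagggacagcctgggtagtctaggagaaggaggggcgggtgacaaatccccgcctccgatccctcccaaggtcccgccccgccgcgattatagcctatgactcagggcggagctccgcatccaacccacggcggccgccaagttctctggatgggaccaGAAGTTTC
The Hsph1 window held a single pair and, at its downstream end, a run of 3 units. Hspe1 and Chordc1 also held runs of at least 3 units, while Dnaja1 and Bag3 held 1 pair each.

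Over all 27025 genes of the promoter table, 0.662% held a 3-unit run, 9.04% held GAANNTTC and 9.60% held TTCNNGAA. Of the 7 chaperone genes at least 1.5-fold higher in Hsph1-high cells that had an entry, 2 held a 3-unit run (Hspe1 and Chordc1), 4 held GAANNTTC (Bag3, Hspe1, Dnaja1 and Chordc1) and 3 held TTCNNGAA (Hspe1, Chordc1 and Dnajb4). Of the 33 other measured chaperone genes with an entry, 2 held a 3-unit run (Dnajb6 and Hspd1), 4 held GAANNTTC and 4 held TTCNNGAA. Hspd1 lies head to head with Hspe1 on chromosome 1, and its window covers the same run on the opposite strand. Among all 238 genes with an entry that stood at least 1.5-fold higher, 9.66% held GAANNTTC, 8.82% held TTCNNGAA and 1.26% (3 genes) held the 3-unit run. Over all measured genes with an entry the shares were 6.79%, 8.28% and 0.700%. These are letter matches in a fixed window, not binding sites.

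Hsph1 ranged widely among cells given the same treatment. Hsph1-high cells held 2567 CPM at the lowest, 3364 at the median and 10510 at the highest, with a median of 96.5 Hsph1 UMIs per cell. Hsph1-low cells held 21.8, 440 and 907 CPM, with a median of 11.75 UMIs. The 6 cells of 37 °C 5 h held 179.4, 361 and 465 CPM. All middle cells lay above the highest of the 51 unheated cells, 633.6 CPM, whereas 38 of the 54 Hsph1-low cells lay at or under it and 8 lay at or under the unheated median of 208.8 CPM. The middle cells nearest the limits held 2524 and 918.7 CPM, and the high and low cells nearest them held 2567 and 906.7 CPM, so neither limit falls in a gap.

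**Figure D1:**
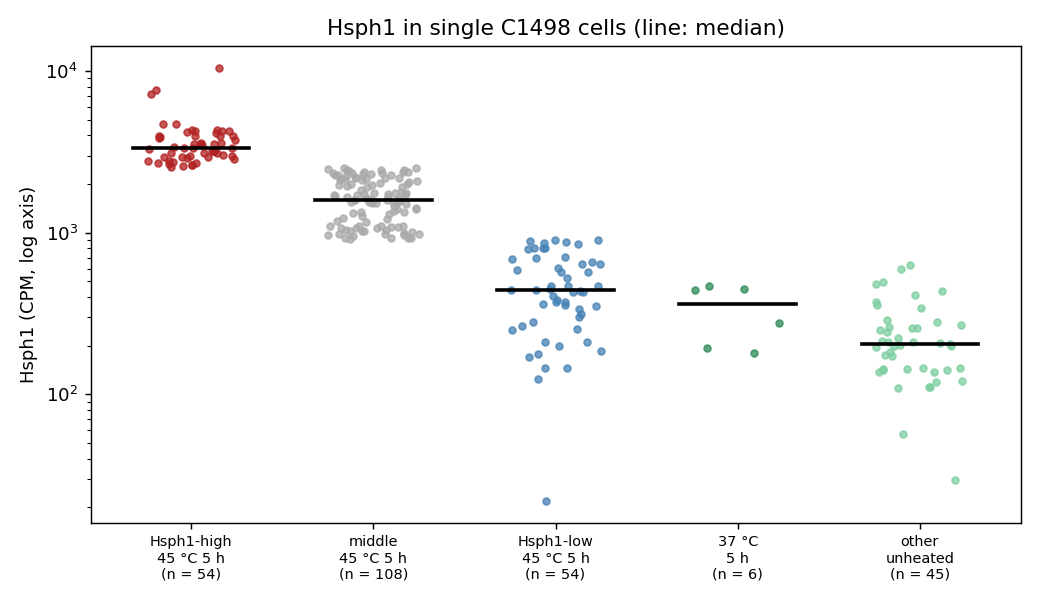
Hsph1 level of every cell (points, CPM, log axis) in the Hsph1-high, middle and Hsph1-low cells of 45 °C 5 h, the 6 cells of 37 °C 5 h and the other 45 unheated cells, with lines at the medians. The high cells begin at 2567 CPM, and 38 of 54 low cells lie at or under the highest unheated cell.

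Depth was close in both sets. The median cell had 32046 UMIs in the high set (11028 to 53705) and 28118 in the low set (8571 to 74648), and the summed UMIs were 1657635 and 1713227. Across high, middle and low cells together, Spearman's rho with Hsph1 was 0.029 for total UMIs, 0.024 for detected genes and -0.19 for the Rn45s share, whose medians were 12.3% in high and 13.3% in low cells. Both sets carried the leukocyte RNAs of this line, with Ptprc at 280 CPM in high and 321 CPM in low cells, Coro1a at 940 and 917 CPM, and Cd3e at 213.3 and 219.5 CPM. Of 27 marker genes of B, myeloid, erythroid, fibroblast and epithelial cells, none reached 20 CPM as the mean of both sets. The highest were Krt8 at 7.84 CPM in high and 3.50 CPM in low cells and Cd79a at 6.03 and 7.59 CPM. Lyz2, Spi1, Csf1r, Kit, Col1a2 and Epcam had no UMI in either set. Values with a fraction of a UMI were 5.30% of those above 0 and held 25.9% of all UMIs, so levels of genes with near-identical copies are uncertain.

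For every other gene, UMIs were summed over the 54 cells of each set, scaled to CPM, and compared as the log2 ratio of high over low. Intervals are 95% and take in counting error alone, leaving out how cells vary. A gene counted as measured where the mean of both levels was at least 20 CPM, which held for 5360 genes. Of these, 309 (5.76%) stood at least 1.5-fold higher in Hsph1-high cells and 280 (5.22%) at least 1.5-fold lower, around a median log2 ratio of 0.0064. As a measure of how consistently cells differed, the pair share below is the percentage of all high and low cell pairs in which the high cell had the higher CPM, with 50% where the sets do not differ. The 12 genes named in each direction were those of the most extreme pair share that also had a mean of at least 50 CPM, a UMI in at least 50% of the cells of the higher set and a direction that no single cell decided.

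**Figure D2:**
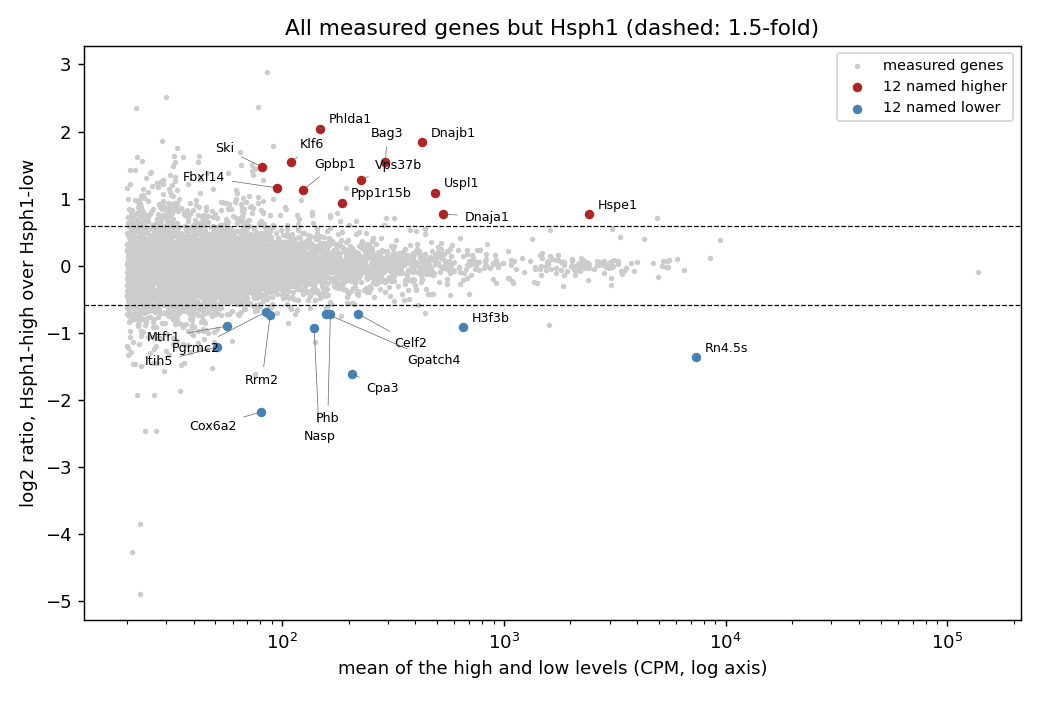
Log2 ratio of Hsph1-high over Hsph1-low cells (y axis) against the mean of the levels in both sets (x axis, CPM, log axis) for the 5360 measured genes, with the 12 named genes of each direction coloured and dashed lines at 1.5-fold. Dnajb1 at 1.84 and Bag3 at 1.55 lie well above the upper line, and Rn4.5s at -1.37 lies well below the lower one.

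By pair share, the cochaperones Dnajb1 and Bag3 led the named higher genes, ahead of Gpbp1, which is not a chaperone. Dnajb1, a J-domain cochaperone that stimulates the ATPase of HSP70, had the highest pair share, 85.7%. It stood at 0, 465 and 2740 CPM (lowest, median and highest cell) in Hsph1-high cells, at 0, 96.2 and 1134 CPM in Hsph1-low cells, and at 30.8, 51.1 and 144.4 CPM in the cells of 37 °C 5 h. In 51 of 54 high cells it lay above the median of the low cells, though the ranges overlapped. The summed level was 668 CPM in high, 313 CPM in middle and 186.5 CPM in low cells, a log2 ratio of high over low of 1.84 (1.66 to 2.02). After thinning to 5000 UMIs per cell, a Dnajb1 UMI remained in 47 of 54 high cells (87.04%) and 22 of 54 low cells (40.7%). At full depth the shares were 98.1% and 85.2%. These are cells of 1 sample, so no interval is given.

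Bag3, a nucleotide exchange factor of HSP70 that routes clients to autophagy, followed. Its cells held 0, 421 and 871 CPM in the high set, 0, 97.5 and 604 CPM in the low set, and 0, 17.8 and 64.6 CPM at 37 °C 5 h. The high cells were again mostly above the low ones, 50 of 54 of them above the low median, and the sets overlapped. Summed, Bag3 stood at 437, 314 and 149.4 CPM in high, middle and low cells, a log2 ratio of high over low of 1.55 (1.34 to 1.76).

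Hspe1, the co-chaperonin that caps the mitochondrial chaperonin, was detected in every cell of both sets. Its lowest, median and highest cells held 1370, 2980 and 7402 CPM in the high set, 472, 1964 and 3867 CPM in the low set, and 574, 1188 and 1480 CPM at 37 °C 5 h. Although its ratio was modest, 0.77 (0.70 to 0.83), its pair share of 83.02% was among the highest. Dnaja1, another J-domain cochaperone, held 671 CPM in high and 392.2 CPM in low cells, with a ratio of 0.77 and a pair share of 79.97%. Middle cells were closer to high cells for Hspe1 (2847 CPM) and Dnaja1 (570 CPM), but closer to low cells for Dnajb1.

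Across the 52 measured members of the heat shock chaperone list (71 genes, Hsph1 left out), 9 stood at least 1.5-fold higher and 0 at least 1.5-fold lower. That is 17.3% of the list, beside 5.76% of all measured genes. The list's median log2 ratio was 0.16, so most of the list differed little. Of its 52 members 32 lay above 0, beside 2726 of all 5360 measured genes. Besides the 4 genes above, the 9 were Hsp90aa1, Ahsa1, Chordc1, Dnajb4 and Grpel2. Grpel2 reached the limit of 20 CPM through the high cells alone, so nothing is read from its place in the count. With high, middle and low cells together divided at the median of Hsph1, Hspe1 stood at 0.40, Dnaja1 at 0.51 and Hsp90aa1 at 0.30. Ahsa1 stood at 0.46 and Chordc1 at 0.44, so all of these were under 1.5-fold.

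By family, the HSP90 group had 3 of 16 measured members (18.75%) at least 1.5-fold higher, beside 5.76% of all measured genes. Hsp90aa1, the inducible HSP90, stood at 6105 CPM in high, 5497 CPM in middle and 3744 CPM in low cells, against 1620 CPM at 37 °C 5 h, a log2 ratio of high over low of 0.71 (0.66 to 0.75). Of its UMIs 30.1% lay in values that were not whole. Ahsa1, which activates the ATPase of HSP90, stood at 399 CPM in high and 244 CPM in low cells, and Chordc1, an HSP90 cochaperone, at 133.3 and 72.7 CPM. Hsp90ab1, the constitutive HSP90, was the most abundant chaperone RNA and stood at 10673 CPM in high and 8151 CPM in low cells, a ratio of 0.39, with 53.5% of its UMIs in values that were not whole. For Hsp90aa1, 51 of 54 high cells lay above the low median, and 12 of 54 low cells lay above the high median.

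Of the J-domain and BAG group 4 of 18 measured members (22.2%) were at least 1.5-fold higher, beside 5.76% of all measured genes. Dnajb4, a J-domain cochaperone, held 58.5 CPM in high and 27.4 CPM in low cells, and the median low cell had none. None of the 5 measured genes of the HSP70 and HSP110 list passed 1.5-fold, a list that held, besides the HSP70 relatives Hspa8 and Hspa14, the HSP110 gene Hspa4 and the cochaperones Hspbp1 and St13. Hspa8, the constitutive HSP70, stood at 3831 CPM in high and 2853 CPM in low cells, against 3524 CPM at 37 °C 5 h, a ratio of 0.43, so of the heated sets the high cells alone lay above the control level. Inducible HSP70 was rare in both sets, with Hspa1a UMIs in 2 of 54 high cells and 1 of 54 low cells, and in 15 middle cells. Hspa1a reached 2494 CPM in its highest high cell and 5955 CPM in its highest middle cell. Hspa1b is a near-identical copy whose reads cannot be told from those of Hspa1a with certainty, and 77.5% of the Hspa1a UMIs lay in values that were not whole.

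Mitochondrial chaperones diverged among themselves, with 2 of 13 (15.4%) at least 1.5-fold higher (Hspe1 and Grpel2), beside 5.76% of all measured genes. Their median was -0.02. Grpel2, a nucleotide exchange factor of mitochondrial HSP70, was scarce at 27.1 CPM in high and 13.4 CPM in low cells. Its log2 ratio of 1.00 became 0.29 between the upper and lower 10% of cells and 0.36 within cells above the median total UMIs, and without it 1 of the mitochondrial genes was past 1.5-fold. Hspd1, the chaperonin that pairs with Hspe1, held 3667 CPM in high and 2505 CPM in low cells, a ratio of 0.55 (0.49 to 0.61) that stayed under 1.5-fold. Hspa9, mitochondrial HSP70, stood at 596 CPM in high and 798 CPM in low cells, a ratio of -0.42. A single low cell with 5852 CPM set that difference, and without it the ratio was 0.04. Cytosolic chaperonin and prefoldin genes had 0 of 14 members past 1.5-fold and a median of 0.05. Endoplasmic reticulum chaperones had 0 of 17 higher and 1 (5.88%) lower, beside 5.22% lower over all measured genes. Hsf1 itself stood at -0.07.

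**Figure D3:**
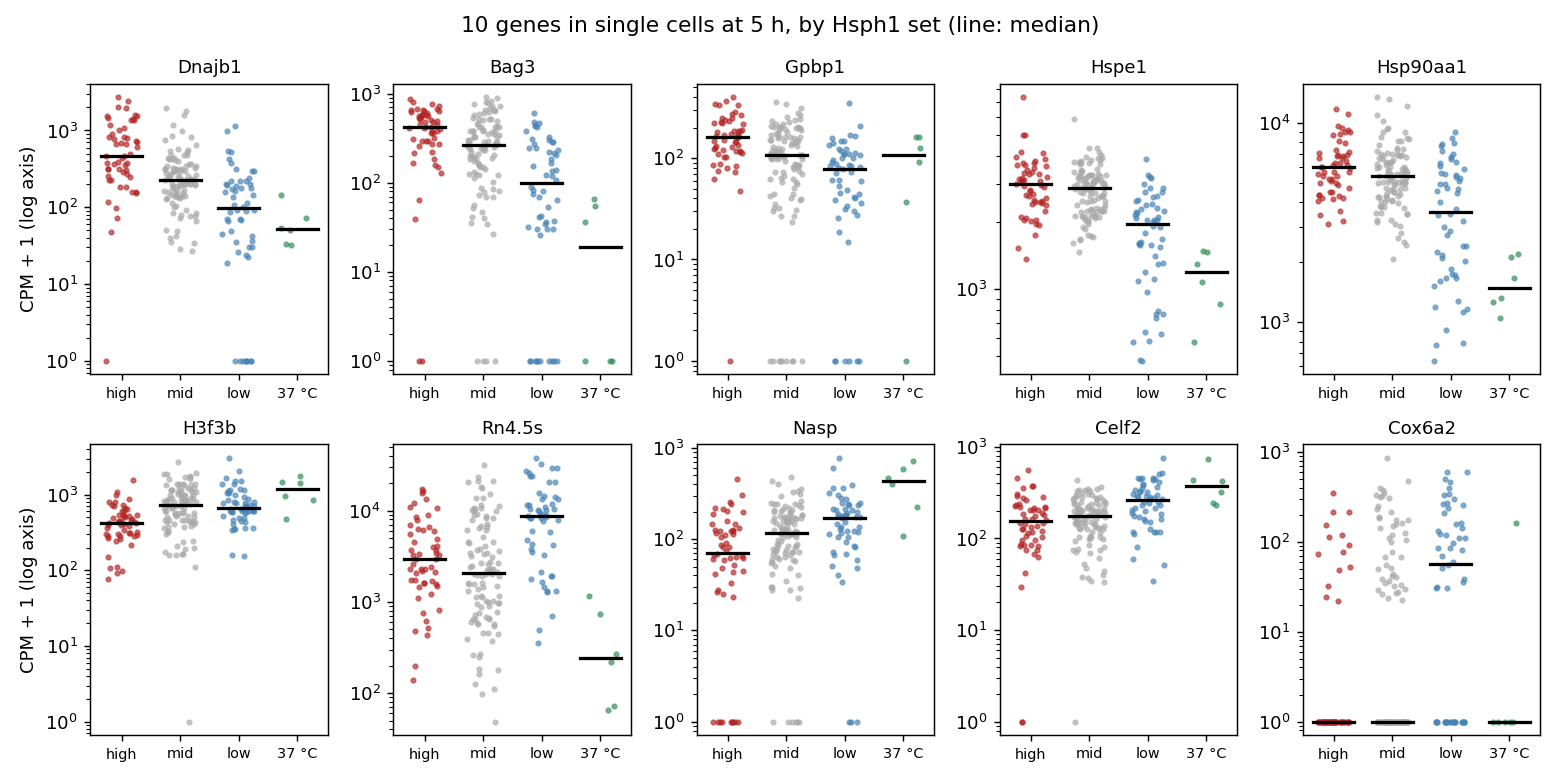
Level in every cell (points, CPM + 1, log axis) of 5 genes higher (upper row) and 5 genes lower (lower row) in Hsph1-high cells, for Hsph1-high, middle (mid) and Hsph1-low cells of 45 °C 5 h and for cells of 37 °C 5 h, with lines at the medians. The sets overlap for each gene shown, and Dnajb1 has a median of 465 CPM in high, 96.2 CPM in low and 51.1 CPM in control cells.

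The other 8 of the 12 named higher genes were not chaperones. Uspl1, a SUMO isopeptidase, held 76.5, 639 and 1648 CPM in the lowest, median and highest Hsph1-high cell, 0, 252 and 1364 CPM in Hsph1-low cells, and 0, 143.9 and 195.7 CPM at 37 °C 5 h. In 52 of 54 high cells it lay above the low median. Its ratio was 1.09 (0.94 to 1.24). Uspl1 and Hsph1 both lie on chromosome 5, Uspl1 at chr5:149184350-149215434 on the plus strand and Hsph1 at chr5:149614287-149636376 on the minus strand, in mm10 with the GENCODE annotation.

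Phlda1, an inducible pleckstrin homology-like protein, had the largest ratio of the 12, 2.04 (1.73 to 2.38), with 239 CPM in high and 57.8 CPM in low cells. Klf6, a zinc finger transcription factor, stood at 163.5 and 56.03 CPM, Ski, a corepressor of SMAD signalling, at 120.4 and 43.2 CPM, and Gpbp1, a transcription factor that binds GC-rich promoters, at 171.9 and 78.2 CPM. Median cells of these 4 genes ranged from 108.1 to 176.3 CPM in the high set and from 35.8 to 77.6 CPM in the low set, with overlap in every case. Vps37b, a subunit of the ESCRT-I sorting complex, held 321 CPM in high and 131.6 CPM in low cells. Ppp1r15b, a regulatory subunit of the phosphatase that removes the phosphate from eIF2-alpha, held 244 and 127.5 CPM, and Fbxl14, a substrate receptor of a ubiquitin ligase, 130.9 and 58.4 CPM.

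Set beside cells of 37 °C 5 h, the 12 higher genes formed 2 patterns. For 8 of them (Dnajb1, Bag3, Hspe1, Uspl1, Dnaja1, Ppp1r15b, Vps37b and Klf6) both the high and the low cells lay above the control level. For the other 4 (Gpbp1, Ski, Phlda1 and Fbxl14) the high cells lay above it and the low cells below it. Phlda1, for example, stood at 239 CPM in high, 57.8 CPM in low and 149.7 CPM in control cells. The same 8 and 4 genes were found against all 51 unheated cells. Middle cells lay between high and low cells for 12 of the 12 genes. With a division at the median of Hsph1, Uspl1 stood at 0.51, Ppp1r15b at 0.49 and Fbxl14 at 0.57, under 1.5-fold. Thinning each cell to 5000 UMIs took the ratio of Fbxl14 to 0.38, and within cells at or below the median total UMIs Hspe1 stood at 0.53 and Hsp90aa1 at 0.38. High and low cells share these controls, so the sides are not independent of each other.

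Lower in Hsph1-high cells was first H3f3b, which encodes the replication-independent histone H3.3. It held 75.3, 425 and 1544 CPM in the lowest, median and highest high cell, 152.7, 666 and 3084 CPM in low cells, and 480, 1196 and 1757 CPM at 37 °C 5 h. In 46 of 54 low cells it lay above the high median. The log2 ratio was -0.92 (-1.05 to -0.79) and the pair share 23.1%. Both sets lay below the control, the high cells further so. With a division at the median of Hsph1 the ratio was -0.32, under 1.5-fold.

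Rn4.5s, a short rodent RNA made by RNA polymerase III, showed the opposite side of the control. It held 136.6, 2947 and 17024 CPM in the lowest, median and highest high cell, 350, 8809 and 38032 CPM in low cells, and 64.6, 243 and 1150 CPM at 37 °C 5 h. Both sets thus lay far above the control, the low cells higher. Their summed level, 10615 CPM, was nearer that of the 13 cells of 45 °C 1 h (12951 CPM) than the 4111 CPM of high cells was. Middle cells, at 3950 CPM, were level with high cells rather than between the sets. Of its UMIs 34.2% lay in values that were not whole.

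DNA replication and chromatin genes were among those lower in Hsph1-high cells. Nasp, a histone chaperone, stood at 96.2 CPM in high and 183.6 CPM in low cells, against 464 CPM at 37 °C 5 h, and Rrm2, the small subunit of ribonucleotide reductase, at 66.4, 110.9 and 353 CPM in the same order. Of the 36 measured S phase genes 5 (13.9%) were at least 1.5-fold lower and 1 higher, beside 5.22% lower over all measured genes, with a median of -0.06. Of 37 G2 and M phase genes 1 was lower and 3 (8.11%) higher, beside 5.76% higher over all measured genes, with a median of 0.01. After thinning to 5000 UMIs the ratio was -0.36 for Rrm2, -0.43 for Itih5 and -0.54 for Celf2, short of 1.5-fold, and within cells at or below the median total UMIs it was -0.48 for Nasp. A division at the median of Hsph1 gave -0.38 for Celf2, -0.36 for Rrm2, -0.49 for Phb, -0.35 for Pgrmc2, -0.34 for Gpatch4 and -0.50 for Mtfr1.

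Among the other named lower genes, Cpa3, a mast cell carboxypeptidase, held 101.7 CPM in high and 311 CPM in low cells, against 492 CPM at 37 °C 5 h, a ratio of -1.61 (-1.88 to -1.37). Cox6a2, the muscle-type isoform of a cytochrome c oxidase subunit, had the largest ratio of the 12, -2.18, with 28.96 CPM in high, 132.2 CPM in low and 18.5 CPM in control cells, and no UMI in the median high cell. Its control UMIs came from 1 of the 6 cells, and over all 51 unheated cells it stood at 61.4 CPM, above the high cells. Celf2, an RNA-binding splicing regulator, Phb, a mitochondrial inner membrane scaffold, and Gpatch4, a nucleolar G-patch protein, had ratios of -0.72, -0.72 and -0.71, all with both sets below the control. Itih5, an inter-alpha-trypsin inhibitor heavy chain, had a ratio of -1.22, also with both sets below the control of 5 h. Pgrmc2, a heme-binding membrane protein, and Mtfr1, a mitochondrial fission regulator, had ratios of -0.69 and -0.90 and were the 2 genes for which high cells lay below and low cells above the cells of 37 °C 5 h. In all, 8 of the 12 lower genes had both sets below that control, and Rn4.5s and Cox6a2 had both above it. Against all 51 unheated cells 7 had both sets below, Rn4.5s alone had both above, and Cox6a2 and Itih5 joined Pgrmc2 and Mtfr1 with high cells below and low cells above.

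The other lists of stress and metabolic genes are read against the 5.76% higher and 5.22% lower over all measured genes. Cholesterol synthesis had 5 of 14 measured genes (35.7%) at least 1.5-fold lower and 0 higher, and a median of -0.21. Among them were Hmgcs1 (-1.61), Sqle (-1.24), Msmo1 (-0.97) and Idi1 (-0.60). Hmgcs1, an early enzyme of the pathway, stood at 37.1 CPM in high and 114.1 CPM in low cells, against 86.1 CPM at 37 °C 5 h. Of 15 glycolysis genes 0 were higher and 2 lower, Slc16a1 (-0.64) and Hk2, which at 17.5 CPM in high and 42.6 CPM in low cells reached the limit of 20 CPM through the low cells alone. Tmsb4x, an actin-sequestering peptide, stood at 1123 CPM in high, 2075 CPM in low and 2876 CPM in control cells, while 2 of the 27 actin genes in all (7.41%) were lower and 0 higher.

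Of 10 measured immediate early genes, Klf6 (1.54) and Ier5 (1.495) were at least 1.5-fold higher. Myc, at 9.05 CPM in high and 35.3 CPM in low cells, and Egr1, at 12.1 and 28.6 CPM, reached the limit of 20 CPM through the low cells alone, so they are given as levels and no share of the list is read from them. Egr1 rested on 1 low cell, without which its ratio was 0.16. Of 11 apoptosis regulators 2 (18.2%) were higher, Cflar (0.98), a caspase inhibitor with 48.03% of its UMIs in values that were not whole, and Bcl2l11 (0.86), a proapoptotic BCL2 relative. Of 16 NRF2 and metal stress genes 1 (6.25%) was higher, Osgin1, at 150.8 CPM in high and 20.1 CPM in low cells, against 8.20 CPM at 37 °C 5 h. Its ratio was 2.89, and 1.89 without 1 high cell of 2402 CPM. ATF4 targets had 0 of 22 higher and 3 lower, of which Atf5 (17.5 CPM in high and 28.02 CPM in low cells) and Ddit3 (16.3 and 28.6 CPM) reached that limit through the low cells alone.

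Some lists had no measured member past 1.5-fold. Ribosomal protein genes had 0 of 81 past 1.5-fold in either direction (median 0.01), proteasome and ubiquitin genes 0 of 40 (0.03), nuclear respiratory chain genes 0 of 34 (0.0054) and T-lineage genes 0 of 11 (-0.11). Noncoding RNAs had 11 of 12 members above 0, beside 2726 of all 5360 measured genes. Their median was 0.21, with Snhg5 (0.84) and Neat1 (0.70) past 1.5-fold. The nuclear RNA Malat1 was at 839 CPM in high and 829.4 CPM in low cells.

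**Figure D4:**
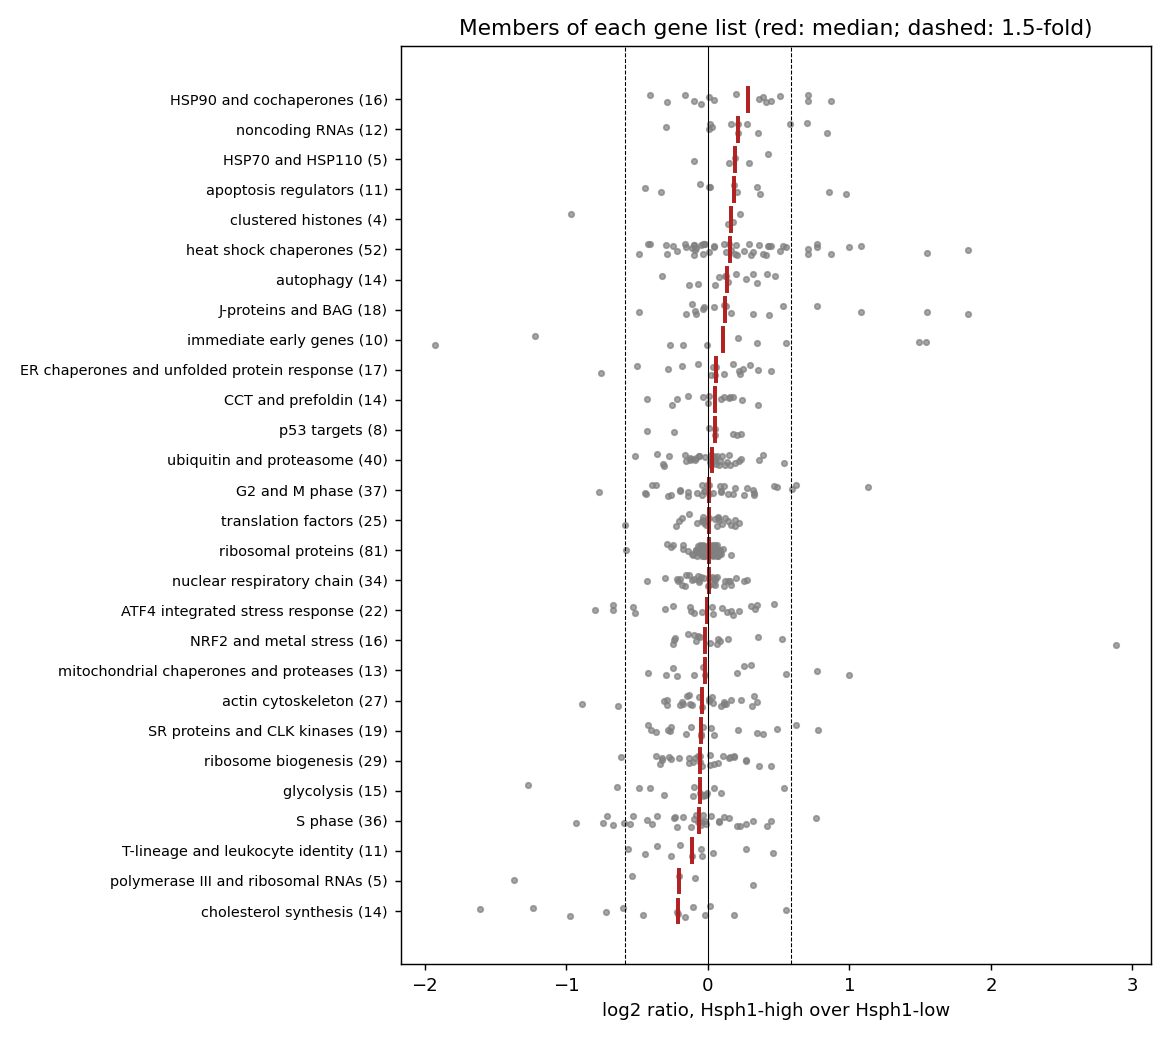
Log2 ratio of Hsph1-high over Hsph1-low cells (x axis) for each measured member (points) of the gene lists (rows, number measured in brackets), with the median of each list in red and dashed lines at 1.5-fold. Chaperones have 9 of 52 members (17.3%) past 1.5-fold on the higher side, beside 5.76% of all measured genes. Of the 9, Grpel2 reached the limit of 20 CPM through the high cells alone. Ribosomal protein genes have 0 of 81 past 1.5-fold on either side.

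Across high, middle and low cells together, the 10 genes whose level followed Hsph1 most closely (Spearman's rho, mean of at least 50 CPM) were Dnajb1 (0.49), Hspe1 (0.49), Gpbp1 (0.47), Uspl1 (0.45), Vps37b (0.44), Dnaja1 (0.44), Ski (0.44), Phlda1 (0.41), Gpr65 (0.40) and Bag3 (0.40). These correlations share each cell's library and depth and are given without a p. Gpr65, a proton-sensing receptor, was the one not named above. It held 130.9 CPM in high and 25.1 CPM in low cells, against 139.5 CPM at 37 °C 5 h. After thinning to 5000 UMIs, 7 of the 10 stayed among the 10 most alike, with rho between 0.26 (Uspl1) and 0.38 (Phlda1), while Gpbp1 (0.19), Dnaja1 (0.20) and Gpr65 (0.17) did not, and Arpc2, Abcb9 and Osgin1 took their places.

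Cells of later times, which the sets did not use, gave a mixed picture. At 10 h, among 45 cells that passed the same limits on UMIs and Rn45s, 6 of the 12 higher genes had a positive rho with Hsph1 and their median rho was 0.03, beside 56.4% positive over all measured genes. Dnaja1 (0.41) and Hspe1 (0.38) kept a positive value, while Bag3 (-0.41), Uspl1 (-0.37) and Vps37b (-0.26) were negative. At 15 h, among 19 cells, 10 of the 12 were positive with a median of 0.38, beside 46.3% of all genes. Dnajb1 was at 0.16 at 10 h and 0.41 at 15 h. Hspa8, named here after its values were seen, had 0.34 at 5 h, 0.73 at 10 h and 0.02 at 15 h. Of the 12 lower genes 4 were negative at 10 h and 6 at 15 h, although all 12 were negative at 5 h, where they were chosen.

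**Figure D5:**
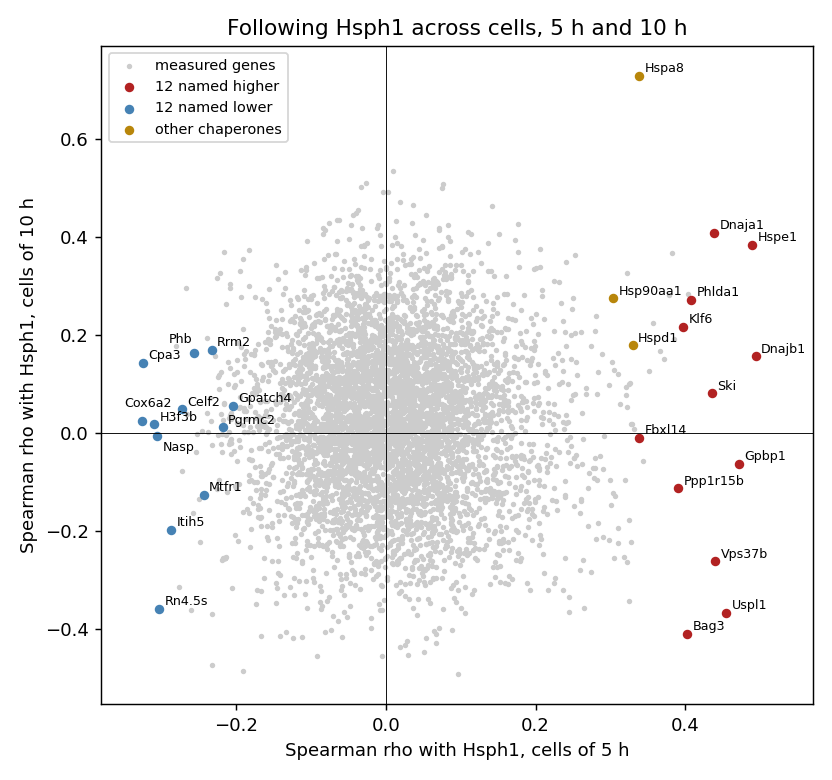
Spearman's rho with Hsph1 across the cells of 5 h (x axis) and of 10 h (y axis; 45 cells) for each measured gene (grey), the 12 named higher genes, the 12 named lower genes and 3 other chaperones. The higher genes lie at the right by choice, 6 of the 12 above 0 and 6 below it at 10 h, and Hspa8 is highest at 0.73.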

How the data were processed

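RNA of single C1498 cells was counted after molecular barcoding and poly(T) priming, per the labels' protocols. The deposited table holds estimated counts of UMIs per gene and cell, which the authors did not scale. Per the submitters' processing notes, reads were handled with STAR (version not stated) against mm10. How UMIs were counted, and whether cells were filtered, is not given in the sources used here. Each cell's group came from its title, and each table column was matched by the library name in the labels. No 2 cells had identical values.

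Cells with fewer than 5000 UMIs (1 cell) or over 30% of UMIs from Rn45s (6 cells) were left out. UMIs were summed per set and scaled to CPM with Python 3.11.15, numpy 2.4.6, pandas 2.3.3 and scipy 1.17.1. Log2 ratios were taken after adding 0.5 UMI to each sum. The exact conditional (Clopper-Pearson) 95% interval was taken from sums rounded to whole UMIs. UMIs of 1 cell are not independent, so intervals cover counting error only. TMM scaling (edgeR 4.0.16, R 4.3.3) was an alternative and no count test was run, since the cells form 1 sample. From each list, the members named were the chaperones past 1.5-fold, and otherwise the largest and smallest ratio and the 2 with the most UMIs. Further members and genes named beside these were chosen after their values were seen. Members, lists and tests were chosen with earlier results of these data known. The procedure was tested on simulated data, with counts drawn independently for each gene and cell. That test says nothing of genes that vary together or in bursts across real cells. Spike-in RNA was not analysed here.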

Additional observations from a re-analysis of the deposited data

Results flagged for a closer look

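Among the 6 cells of 37 °C 5 h, 25 genes were looked at for a cell far from the other 5 by Dixon's criterion, and 5 genes met it. Chance meets it in about 1 of 20 groups of normally distributed values, which levels from a few UMIs are not. A gene with UMIs in 1 cell alone always meets it, so no excess is read from the count. The highest cell held 144.4 CPM of Dnajb1 where the next held 71.8 CPM. The highest cell of Vps37b held 184.9 CPM where the next held 73.4 CPM, and that of Fbxl14 held 161.5 CPM where the next held 72.2 CPM. Cox6a2 stood at 161.5 CPM in 1 cell and at 0 in the other 5. Uspl1 stood at 0 in its lowest cell where the next held 124.5 CPM. The control levels of these genes therefore rest on few cells.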

How the results depend on the processing

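Levels of the 29 genes named by pair share or as chaperones kept their direction in 435 of 435 alternative values and stayed at least 1.5-fold in 407. Part of this was fixed in advance. The limits of 20 UMIs and of a mean of 50 CPM left the ratios of single genes unchanged. Genes named by pair share had to keep their direction with any single cell left out. Of the 28 values under 1.5-fold, 15 came from a division at the median, among them H3f3b at -0.32, Hspe1 at 0.40 and Hsp90aa1 at 0.30. Of the others, 5 came from cells at or below the median total (Hspe1 0.53, Nasp -0.48), 4 from thinning, and Grpel2 fell to 0.29 between the upper and lower 10%. The shares of genes at least 1.5-fold higher and lower, 5.76% and 5.22% (309 and 280 genes), moved more. Thinning each cell to 5000 UMIs gave 16.4% and 14.4% (888 and 784 genes), and a limit of 20 UMIs in place of CPM 8.90% and 10.4% (714 and 838). A mean of at least 50 CPM gave 3.79% and 1.81%, the upper and lower 10% of cells 11.9% and 13.7%, and a division at the median 2.87% and 1.09%. Within cells at or below the median total UMIs the shares were 14.6% and 8.93%, and within cells above it 6.93% and 9.44%. Leaving out each cell in turn gave 5.39% to 6.30% higher and 4.89% to 5.50% lower. The median of the chaperone list, 0.16, ranged from 0.13 to 0.26, and from 0.13 to 0.17 with 1 cell left out. Of the 10 genes most like Hsph1, 7 were kept after thinning (not Gpbp1, Dnaja1 and Gpr65). List medians near 0 changed sign for clustered histones with a division at the median (-0.27, against 0.16) and for ribosomal proteins within cells at or below the median total (-0.089, against 0.0065). The cause was not tested for any of these. No paired analysis was possible because the sets are cells of 1 sample and no result comes from a test. Counting error is wide for genes near 20 CPM, so counts past 1.5-fold hold much of it. Cdc37l1, at 19.3 CPM in high and 25.7 CPM in low cells, had a log2 ratio of -0.41 (-1.12 to 0.28).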

Other observations

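Several genes outside the rule, chosen after their values were seen, also stood apart. Smad7, an inhibitor of TGF-beta signalling, stood at 270 CPM in Hsph1-high and 121.1 CPM in Hsph1-low cells, against 36.9 CPM at 37 °C 5 h, a log2 ratio of high over low of 1.15. Zfand2a, an arsenite- and heat-inducible zinc finger protein, stood at 116.7 and 48.2 CPM in high and low cells (1.27), and Cacybp, a cochaperone-like protein of the SGT1 family, at 349 and 228 CPM (0.61). Rhoh, a hematopoietic small GTPase, stood at 98.9 CPM in high and 30.4 CPM in low cells, and Cxcr4, a chemokine receptor, at 51.3 and 8.76 CPM. Cxcr4 reached the limit of 20 CPM through the high cells alone, so it is given as a level only. Cd160, a lymphocyte receptor, ran the other way at 88.7 CPM in high and 194.7 CPM in low cells, and the measured T-lineage list as a whole had 0 of 11 genes past 1.5-fold.

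The 7 cells left out by the limits on UMIs and Rn45s held between 0 and 8904 CPM of Hsph1, with a median of 340 CPM. With them included the counts were 317 higher and 268 lower genes.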
